A study of Homo sapiens with 2 samples.

Results

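The genes described here are 53 regulators and markers of intestinal epithelial lineages, chosen by name, although earlier results of these data were known. They cover 13 transcription factors, 16 genes of absorptive cells, 6 membrane mucins, 10 goblet cell genes, 3 Paneth cell genes, the enteroendocrine marker CHGA and 4 stem and progenitor genes. Members were found by the gene symbol of each probe in the platform's annotation, which gave 56 probes for 51 of the genes. HNF4A and NEUROD1 were not analysed here. Of the 51 genes, 43 had a spot above background on at least 1 array, among 16685 genes measured in all.

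The study asked which transcripts differ in colon cancer cells that express CDR1AS, a circular RNA best known as a sponge for the microRNA miR-7. SW620 is an established human colon carcinoma line, derived from a metastasis in a lymph node. One array held total RNA from SW620 cells that carried control lentiviruses, and the other held total RNA from SW620 cells that expressed CDR1AS; both were grown in DMEM with serum without a further treatment. Each group was therefore 1 array, with no replicate, no test and no p-value, and every difference below is between 2 arrays. The vector that carried CDR1AS, its promoter and whether the cells were a clone are not stated in the labels, and CDR1AS itself was not analysed here.

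The lining of the colon renews itself from stem cells at the base of the crypts, which give rise to absorptive cells and to secretory cells. CDX2 and the HNF4 and GATA factors switch on the intestinal programme, Notch signalling directs progenitors to the absorptive fate, and ATOH1 starts the secretory fate where Notch is low. Colon carcinomas keep this programme to varying degrees, and CDX2, villin, galectin-4 and the carcinoembryonic antigens are used to recognise them.

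A spot was called above background where its brightness exceeded the mean of 384 blank spots by more than 2 SD, which placed the limits at 69.1 (control) and 72.1 (CDR1AS) scanner units. The blanks themselves averaged 65.9 ± 1.60 (SD) and 69.5 ± 1.30, so equal brightness on both arrays means slightly less signal on the CDR1AS array. Above background were 84.4% (control) and 87.2% (CDR1AS) of 24459 gene probes. In every pair of spots given here the control array stands first. Probes differ in how brightly they report, so the order of genes by brightness is not an order of transcript levels. In RNA of a whole culture, fewer expressing cells and less RNA per cell cannot be told apart. Repeated positive-control spots within an array had an SD between 0.10 and 0.22 on the log2 scale (24 spots each). Log2 ratios are CDR1AS array over control array, after normexp correction with an offset of 50 and quantile normalization. The offset compresses ratios of dim genes: of 4 equal classes of brightness, the dimmest had 0 of 4172 genes past 2-fold and the brightest had 2.61%. For this reason the spots stand beside the ratios, and for some genes so do values of the authors' deposited table, which is background-subtracted and linear.

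Markers of the labelled cell type were present to an uneven degree. The keratin gene KRT18, with spots of 56040 and 47565 on the control and CDR1AS arrays, and the epithelial adhesion gene EPCAM, with 8538 and 6334, had bright spots. By contrast, the colon markers LGALS4 (122 and 121) and KRT20 (82.8 and 92.4) were dim, and the intestinal cadherin gene CDH17 was above background on the CDR1AS array only (67.9 and 73.3). Among markers of other cells, the fibroblast collagens COL1A1, COL1A2 and COL3A1, the leukocyte gene PTPRC and the endothelial gene TEK were above background on neither array. Others were detected, and some had brighter spots than LGALS4. These included the leukocyte gene CD79A (331 and 418), the fibroblast gene DCN (236 and 243) and the endothelial gene KDR (138 and 135). The other DCN probe was above background on neither array (66.6 and 70.2). The endothelial gene PECAM1 was above background on the CDR1AS array only (66.4 and 98.3). The measured fibroblast markers (4 of 7) had a summed intensity over the blanks of 381 (control) and 368 (CDR1AS). The sums were 472 and 547 for leukocyte markers (4 of 7) and 149 and 179 for endothelial markers (5 of 6). For the 7 measured colon markers the sums were 65166 and 54563, almost all of it from KRT18 and EPCAM. Both are general epithelial genes and not particular to the colon. The brightest of the other colon markers was VIL1 (607 and 755), and CDX2 had 170 and 109.

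Most of the intestinal genes differed little between the arrays. Of the 43 measured, 20 had a log2 ratio above 0 and 23 below, against 47.2% and 52.7% of all measured genes. The median was -0.01, as it was for all measured genes. The transcription factor gene ELF3 and the trefoil factor gene TFF3 were at least 2-fold lower on the CDR1AS array, and none of the 43 was at least 2-fold higher. Among all measured genes 0.575% were at least 2-fold lower and 0.755% at least 2-fold higher. Next after these came CDX2 and TFF2, so 4 members were at least 1.5-fold lower, against 2.23% of all genes, and 0 were at least 1.5-fold higher, against 2.61%. The members were often dim: 14 lay in the dimmest of the 4 classes and 14 in the next, where 0.551% of genes reached 2-fold. The brightest class held 8 members, and 3 of these were past 1.5-fold (9.93% of all genes there) and 2 past 2-fold. In the authors' deposited table, where 41 members had a value on both arrays, 2 were at least 2-fold higher (TFF1 and PROM1; 3.32% of all genes) and 5 at least 2-fold lower (CDX2, ELF3, FABP1, TFF3 and DEFA5; 2.25% of all genes).

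**Figure D1:**
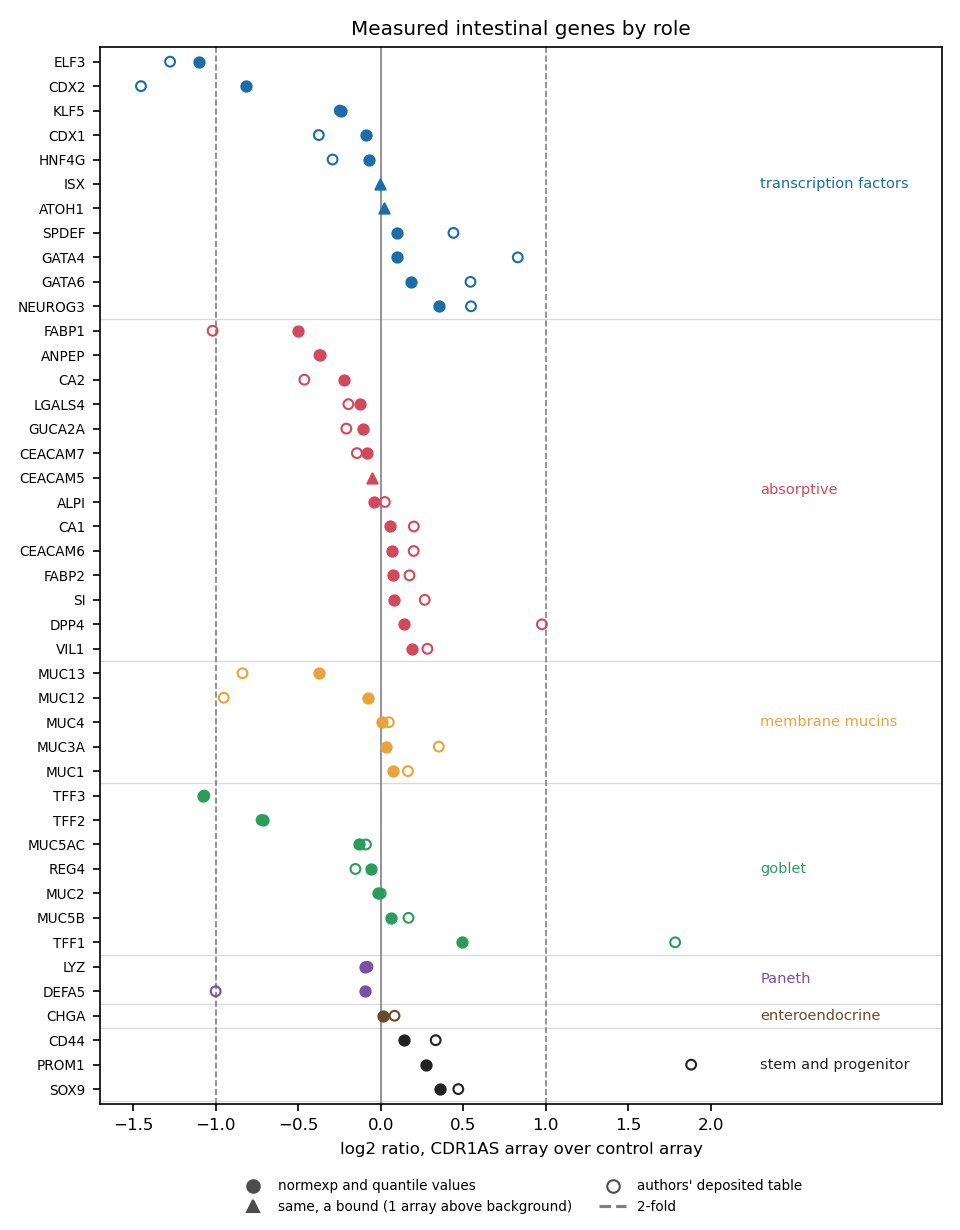
Log2 ratio of each of the 43 measured genes, CDR1AS array over control array, grouped by role and ordered within a role. Filled symbols are the normexp and quantile values (triangles for 3 genes above background on 1 array only), open circles the authors' deposited table and dashed lines 2-fold; ELF3 (-1.10) and TFF3 (-1.08) are the filled points past 2-fold, and the open circles of TFF1 (1.78) and PROM1 (1.88) lie far from their filled points (0.50 and 0.27).

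Among the transcription factors, ELF3 and CDX2 were lower on the CDR1AS array and NEUROG3 was higher. ELF3, an epithelial factor of the ETS family that takes part in the differentiation of absorptive cells, had a spot of 453 on the control array against 236 on the other. It was 2.15-fold lower (log2 ratio -1.10), which placed it at rank 75 from the lowest of the 16685 genes. Its ratio lay between -1.28 and -1.05 under all 8 other processings, so it stayed past 2-fold in each of them. Those that changed only the filter on dim probes or the choice of probe could not alter it, since ELF3 had 1 probe, a bright one. All processings used the same 2 arrays.

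CDX2, the homeobox factor that sets intestinal identity, had spots of 170 and 109. Both were clearly above the blanks, by 65.3 and 30.5 blank SD. It was 1.76-fold lower (log2 ratio -0.82) and 2.74-fold lower in the authors' deposited table, where it had 49.8 and 18.2. After local background subtraction its log2 ratio was -0.36, which is within 1.5-fold. Its relative CDX1 was dim and nearly level, at 83.2 and 83.4 (log2 ratio -0.09).

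KLF5, a zinc finger factor of proliferating crypt cells, was the brightest of these factors, with spots of 1715 and 1516 and a log2 ratio of -0.24, or -1.66 after subtraction of the array's local background column. NEUROG3, the factor that commits progenitors to the enteroendocrine fate, had spots of 176 and 237. Its log2 ratio was 0.35, the highest among the transcription factors, or 0.04 after local background subtraction, and it was 1.46-fold higher in the authors' deposited table. The GATA factors, which act with CDX2 and HNF4 in the gut, were dim, with ratios above 0: GATA6 had spots of 90.5 and 107 (0.19) and GATA4 71.4 and 80.0 (0.10). In the authors' deposited table GATA6 was 1.46-fold higher and GATA4 1.78-fold higher (2.7 and 4.8). HNF4G, which encodes an HNF4 receptor, had spots of 80.8 and 82.1 (-0.07), and SPDEF, a goblet cell factor, 80.6 and 90.1 (0.10).

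The factor genes ATOH1 and ISX were at the edge of detection, 2 of the 3 members above background on 1 array only (4.67% of all genes). ATOH1, which starts the secretory fate, was above background on the CDR1AS array only, with spots of 67.8 and 74.0, which bounds it at 1.01-fold higher or more. ISX, a regulator of vitamin A uptake in absorptive cells, had 66.0 and 73.2, and its bound gives no fold. The 11 measured factors thus had 5 ratios above 0 and 6 below, with a median of -0.00. The 6 include ISX, whose bound of -0.00 is also that median, although ISX was above background on the CDR1AS array only.

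**Figure D2:**
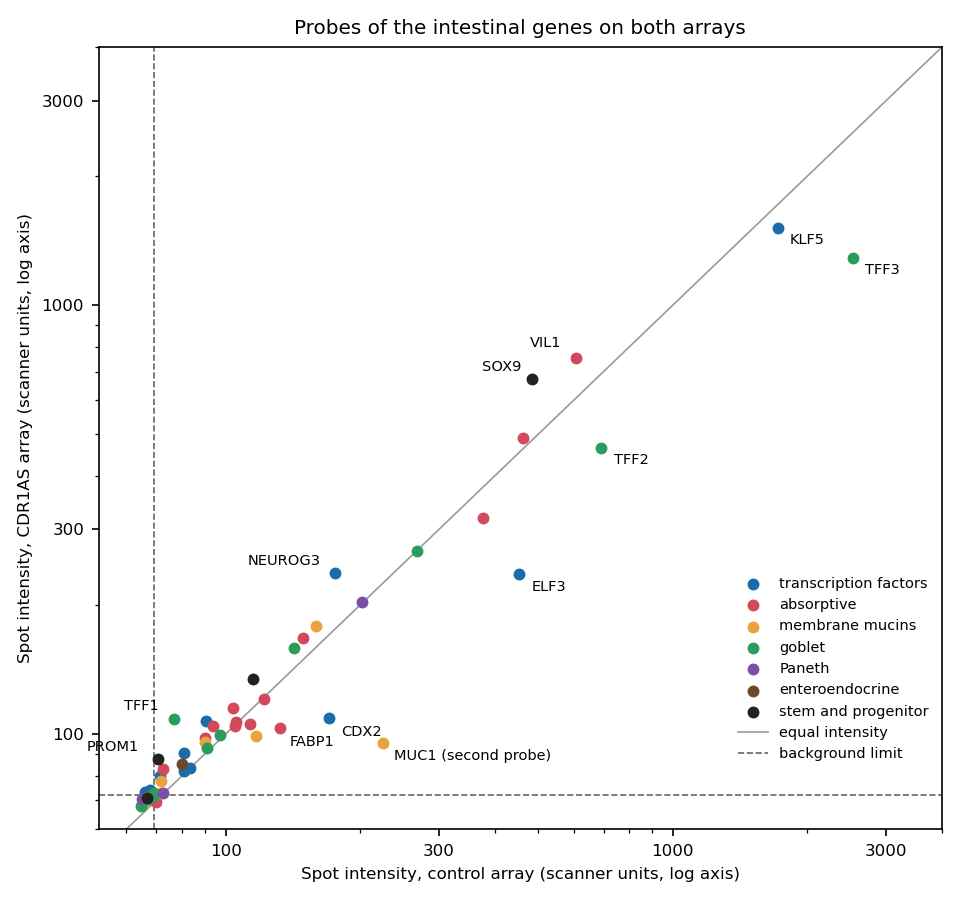
Spot intensity of the 56 member probes on the control array (x) and the CDR1AS array (y), both on log axes in scanner units. Dashed lines are the background limits (69.1 and 72.1) and the solid line is equal intensity; TFF3 (2523 and 1290), ELF3 (453 and 236) and CDX2 (170 and 109) lie below it, and TFF1 (76.6 and 109) lies above.

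Promoter sequences of some members are shown beside their ratios, and binding of CDX2 or ELF3 to them was not tested. Of the 53 genes, 37 matched an entry of the RefSeq promoter table of GRCh38.p14, with 44 start sites. Each entry runs from 250 bases before to 50 bases after a start site. The sequences shown are those of the lower factors ELF3 and CDX2, of the lower genes FABP1 and MUC13, and of SI, a textbook target of CDX2 whose ratio was close to 0. Capitals mark matches to any of 6 motifs on either strand: the CDX motif CATAAA, which reads TTTATG on the other strand, the HNF4 motif CAAAGTCCA, the GATA motif AGATAA, the TATA box TATAAA, the ETS motif AGGAAG and the GC box GGGCGG of SP and KLF factors.
ELF3, chr1:202010337-202010636, plus strand: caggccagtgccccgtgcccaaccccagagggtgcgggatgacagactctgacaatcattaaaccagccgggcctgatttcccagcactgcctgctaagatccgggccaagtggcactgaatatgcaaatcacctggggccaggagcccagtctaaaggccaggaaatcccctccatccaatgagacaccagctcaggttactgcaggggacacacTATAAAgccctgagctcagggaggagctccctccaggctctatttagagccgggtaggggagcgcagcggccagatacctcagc
CDX2, chr13:27969266-27969565, minus strand: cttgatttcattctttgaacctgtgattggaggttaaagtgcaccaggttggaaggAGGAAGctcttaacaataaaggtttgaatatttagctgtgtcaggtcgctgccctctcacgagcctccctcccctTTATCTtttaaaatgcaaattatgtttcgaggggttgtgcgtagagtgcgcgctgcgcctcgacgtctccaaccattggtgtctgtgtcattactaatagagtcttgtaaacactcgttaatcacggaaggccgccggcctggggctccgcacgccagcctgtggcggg
FABP1, chr2:88128013-88128312, minus strand: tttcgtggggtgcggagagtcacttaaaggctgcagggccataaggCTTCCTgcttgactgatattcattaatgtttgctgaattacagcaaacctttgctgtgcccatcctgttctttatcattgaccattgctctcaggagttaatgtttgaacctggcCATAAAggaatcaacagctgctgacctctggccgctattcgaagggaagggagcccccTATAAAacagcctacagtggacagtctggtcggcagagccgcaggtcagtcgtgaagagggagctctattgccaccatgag
MUC13, chr3:124934702-124935001, minus strand: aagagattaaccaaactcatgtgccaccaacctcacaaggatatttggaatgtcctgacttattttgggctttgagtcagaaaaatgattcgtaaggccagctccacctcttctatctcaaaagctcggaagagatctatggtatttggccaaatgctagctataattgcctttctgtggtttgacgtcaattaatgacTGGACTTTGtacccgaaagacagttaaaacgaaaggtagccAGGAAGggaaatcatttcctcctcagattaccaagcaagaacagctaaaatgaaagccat
SI, chr3:165078447-165078746, minus strand: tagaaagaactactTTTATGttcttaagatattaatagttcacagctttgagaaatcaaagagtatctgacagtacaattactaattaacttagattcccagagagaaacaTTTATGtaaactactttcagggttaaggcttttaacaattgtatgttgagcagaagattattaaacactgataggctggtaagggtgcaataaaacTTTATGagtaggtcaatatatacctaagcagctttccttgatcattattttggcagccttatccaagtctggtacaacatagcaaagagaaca

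The SI promoter held 3 matches to the CDX letters, the nearest from base -43 to -38 before the start site. The FABP1 promoter held 1, from -89 to -84, together with a TATA box from -31 to -26 and an ETS match. The ELF3 window held a TATA box from -34 to -29, and the CDX2 window a GATA and an ETS match. In the MUC13 window the HNF4 letters stood from -51 to -43 and an ETS match from -10 to -5. No match printed here overlapped another.

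CATAAA was found in 10.6% of all 35116 promoters of the table and in 7 of the 44 promoters of the intestinal genes. The corresponding shares of all promoters were 11.5% for the TATA box (8 of 44), 10.3% for the GATA letters (7 of 44), 33.6% for the ETS letters (20 of 44) and 45.0% for the GC box (18 of 44). The longer HNF4 letters were found in 0.384% of all promoters and in 1 of 44. A match describes the letters of a window and not the binding of a factor. The FABP1 and SI promoters both held CDX letters, and their log2 ratios were -0.50 and 0.08. Of the other members with CDX letters, PROM1 had 0.27, MUC2 -0.01 and REG4 -0.06, and AGR2 was above background on neither array.

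Of the 16 absorptive genes, 14 were measured, 6 with a ratio above 0 and 8 below, and none reached 1.5-fold. The median was -0.05. VIL1, which encodes the microvillus protein villin, was the brightest, with spots of 607 and 755 and a log2 ratio of 0.19, or -0.27 after local background subtraction. ALPI, the intestinal alkaline phosphatase gene, followed with 463 and 490 (-0.04), or -1.99 after that subtraction.

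FABP1, which encodes the fatty acid binding protein shared by liver and gut, was the lowest absorptive gene. Its spots were 132 and 103, its log2 ratio was -0.50, and in the authors' deposited table it had 31.6 and 15.6, which is 2.03-fold lower. FABP2, which encodes a related fatty acid binding protein of the gut, had 149 and 167 (0.07), or -0.54 after local background subtraction. Of the other liver genes measured beside FABP1, the albumin gene ALB (1279 and 168; -3.14) and SERPINA1 (741 and 316; -1.39) were at least 2-fold lower, and AFP had 171 and 120 (-0.66). After local background subtraction ALB had -2.62, but SERPINA1 (0.67) and AFP (0.10) were above 0. The other 4 liver markers, APOA1, APOA2, TTR and TF, were dim, with ratios between -0.04 and 0.07. The 7 liver markers had a summed intensity over the blanks of 2023 (control) and 431 (CDR1AS), a difference that came from ALB and SERPINA1 for the most part, and their part in the ratio of FABP1 was not tested.

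The brush border peptidases differed in direction, which both changed under local background subtraction. ANPEP, aminopeptidase N, had spots of 377 and 320 (-0.37). DPP4, dipeptidyl peptidase 4, was dim, at 72.3 and 82.8 (0.14), and in the authors' deposited table it was 1.97-fold higher, with 3.1 and 6.1. The sucrase-isomaltase gene SI had 93.7 and 104 (0.08).

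The remaining absorptive genes were all dim and close to level. The carbonic anhydrase genes CA1 (89.7 and 98.1; 0.05) and CA2 (113 and 105; -0.22) lay on either side of 0. GUCA2A, which encodes guanylin, had 105 and 105 (-0.11), while the gene of its receptor, GUCY2C, was above background on neither array. The chloride exchanger gene SLC26A3, lost in many colon tumours, was also above background on neither. LGALS4, the galectin-4 gene, had a log2 ratio of -0.13. Among the carcinoembryonic antigen genes, which are neighbours on chromosome 19, CEACAM6 had spots of 104 and 115 (0.07) and CEACAM7 105 and 107 (-0.08). CEACAM5, the gene of the clinical marker CEA, was above background on the control array only, with spots of 69.9 and 69.4, which bounds it at 1.04-fold lower or more. The 3 genes are similar in sequence, and which transcripts their probes detect is not known here.

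Membrane mucins are the tethered glycoproteins of the apical surface. In this group 5 of 6 genes were measured, 3 with a ratio above 0 and 2 below, and none reached 1.5-fold by its brighter probe. MUC1, however, had a pair of probes that disagreed. Probe DHsGV10002158, the brighter on average, had spots of 159 and 179 (0.07). Probe AHsV10002943 had 225 and 95.2, a log2 ratio of -1.48 (-0.89 after local background subtraction), and was 6.44-fold lower in the authors' deposited table, with 76.0 and 11.8. The parts of the transcript that they detect are not known here, so MUC1 has no single direction.

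MUC13, a membrane mucin of the colon surface, had spots of 117 and 99.1 and a log2 ratio of -0.38, or 0.05 after local background subtraction. In the authors' deposited table it had 24.3 and 13.6, or 1.79-fold lower. MUC4 was level at 90.1 and 95.6 (0.00). MUC3A (71.9 and 77.5; 0.03) and MUC12 (71.8 and 72.8; -0.08) were next to the background limits, where the authors' deposited table had MUC12 1.93-fold lower (2.9 and 1.5), and MUC17, the third gene of this cluster on chromosome 7, was above background on neither array. Which parts of these transcripts the probes detect is not known here, so the assignment of dim signal to 1 of them is uncertain.

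The goblet cell genes held the member with the highest ratio, TFF1, and the one with the lowest ratio after ELF3, TFF3, both of the trefoil factor family. Trefoil factors are small secreted peptides that act with mucins in protecting and repairing the mucosa; TFF3 is the form of intestinal goblet cells, and TFF1 and TFF2 are made mainly in the stomach. The 3 genes lie next to each other on chromosome 21, in the order TFF3, TFF2 and TFF1.

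TFF3 had the brightest spot of the 43 members on the control array, with spots of 2523 and 1290. It was 2.11-fold lower (log2 ratio -1.08, rank 82 from the lowest), and 2.10-fold lower in the authors' deposited table. TFF2 had spots of 693 and 465 and was 1.64-fold lower (log2 ratio -0.71). TFF1 was higher on the CDR1AS array, at 109 against 76.6 (log2 ratio 0.50, or 1.41-fold). Its spots were 6.68 and 30.1 blank SD above the blanks. The authors' deposited table gave it 5.2 and 17.9, or 3.44-fold higher. The trefoil genes thus split, TFF3 and TFF2 being lower and TFF1 higher, except after local background subtraction, as given next.

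The directions of TFF3 and TFF2 depended on the local background column. At the spot of TFF3 that column held 2040 (control) and 225 (CDR1AS). At the spot of TFF2 it held 626 and 233. After its subtraction TFF3 had a log2 ratio of 0.16, TFF2 of 0.53 and TFF1 of 0.12. Over all gene probes the column followed the brightness of the spot itself (Pearson's r of log values 0.977 for the control and 0.942 for the CDR1AS array, across probes, which are not independent replicates), and its part in these ratios was not tested.

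The other goblet genes differed little. MUC2, the gel-forming mucin of the colon, was at the background limit, with spots of 69.2 and 72.8 (-0.01). MUC5AC, the gel-forming mucin of the stomach, was the brightest mucin probe, at 268 and 267 (-0.13, or -0.52 after local background subtraction; its other probe -0.06), and MUC5B had 142 and 159 (0.06), with its other probe above background on neither array. These genes are neighbours on chromosome 11. The 8 gastric markers measured, which include MUC5AC, TFF1 and TFF2, had summed intensities over the blanks of 1028 and 837; the other 5 had log2 ratios between -0.04 and 0.09, and their part in the ratios of TFF1 and TFF2 was not tested. REG4, a secretory cell lectin, had 90.7 and 92.8 (-0.06). AGR2, a disulphide isomerase needed for mucin folding, FCGBP and CLCA1, both secreted with mucus, were above background on neither array by any of their probes. Of the 10 goblet genes 7 were thus measured, 2 above 0 and 5 below, with a median of -0.06.

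The Paneth cell genes were low or level. LYZ, which encodes lysozyme, had spots of 201 and 203 (-0.09). The defensin gene DEFA5 was at the background limit with 72.5 and 73.0 (-0.09), and although the authors' deposited table had 3.2 and 1.6 for it, the CDR1AS spot was only 2.69 blank SD above the blanks. DEFA6 was above background on neither array. CHGA, the chromogranin A gene of enteroendocrine cells, had 79.9 and 85.0 (0.01).

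The 3 stem and progenitor genes measured were all on the higher side, although none reached 1.5-fold and CD44 changed sign after local background subtraction. SOX9, a factor of crypt progenitors, had spots of 484 and 673 (log2 ratio 0.36), and after local background subtraction its ratio was 2.08. The local background column at SOX9 held 534 (control), which is more than the control spot itself, and 248 (CDR1AS). PROM1, which encodes CD133, was dim on the control array at 70.5, or 2.86 blank SD above the blanks, and had 87.2 on the CDR1AS array, 13.6 blank SD above them. Its log2 ratio was 0.27, and it was 3.68-fold higher in the authors' deposited table, with 2.2 and 8.1. That fold rests on a control spot close to the limit. CD44, an adhesion receptor and Wnt target, had 115 and 134 (0.14). OLFM4, a marker of intestinal stem cells, was above background on neither array. The median of these 3 genes was 0.27.

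**Figure D3:**
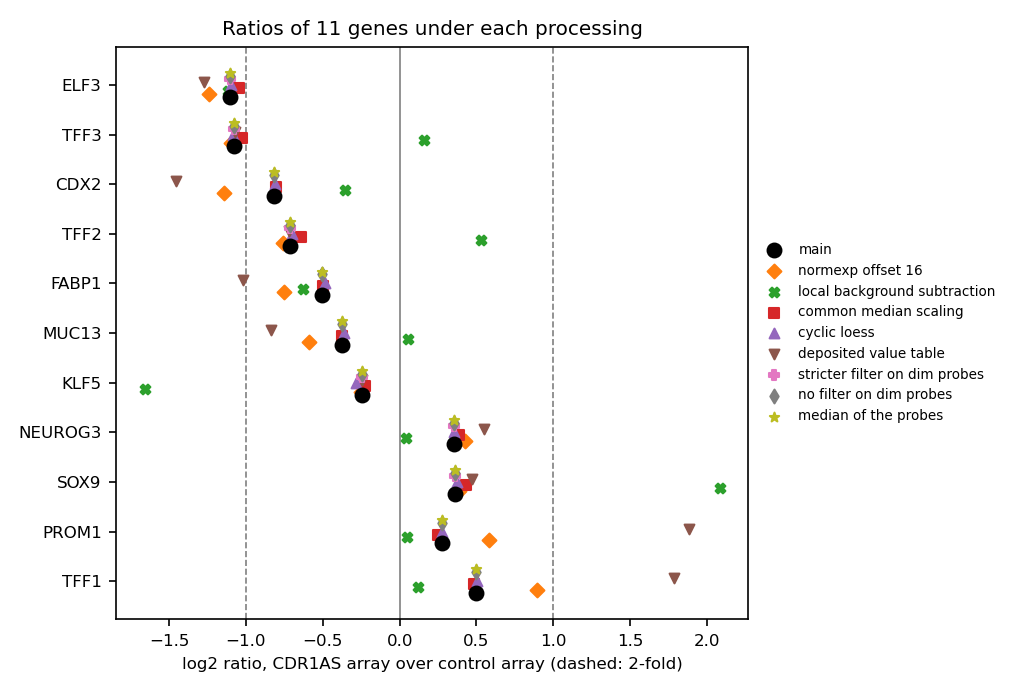
Log2 ratio of 11 genes, CDR1AS array over control array, under the main processing (large black points) and 8 alternatives; the points of a gene are spread vertically for legibility. ELF3 stays between -1.28 and -1.05, whereas local background subtraction (green) puts TFF3 at 0.16, TFF2 at 0.53, KLF5 at -1.66 and SOX9 at 2.08, and the deposited value table moves TFF1 to 1.78 and PROM1 to 1.88.

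Further genes of the same lineages, and of the Notch pathway, were listed apart from the 53, and their list medians lay between -0.16 and 0.03. In 6 of the 7 lists more genes were below 0 than above, while 52.7% of all measured genes were below 0. In the enteroendocrine list 8 were above 0 and 7 below. Many of these ratios were close to 0. The 17 measured transcription factors had a median of -0.02, with 5 above 0 and 12 below and 0 past 2-fold. FOXA2, a factor of endoderm and goblet cells, was the highest, with spots of 160 and 250 (0.58, or 0.22 after local background subtraction), and the epithelial ETS factor gene EHF, a relative of ELF3, the lowest, with 242 and 209 (-0.35). The 25 absorptive genes had a median of -0.03 (8 above 0, 17 below, 0 past 2-fold), from USH1C, a microvillus scaffold (178 and 140; -0.48), to EZR, which encodes ezrin (780 and 954; 0.17).

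Secretory genes outside the 53 included some larger differences. Of 11 goblet genes 2 were above 0 and 9 below (median -0.04). KLK1, the tissue kallikrein gene, was 2.46-fold lower, with spots of 313 and 144 (-1.30), or -0.41 after local background subtraction. STARD10 was 1.98-fold lower, with 671 and 376 (-0.98, or -1.13 after local background subtraction). SPINK1, a secreted trypsin inhibitor gene, was the highest of these goblet genes (73.9 and 97.7; 0.38). Of 9 genes listed for Paneth cells 3 were above 0 and 6 below (median -0.16), with the matrilysin gene MMP7 lowest (129 and 78.2; -0.94, or -0.05 after that subtraction) and WNT3, the Paneth cell Wnt ligand, highest (200 and 222; 0.05). Of 15 enteroendocrine genes 8 were above 0 and 7 below (median 0.03), with ISL1, an endocrine homeobox factor gene, lowest (96.6 and 90.3; -0.21).

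SCG2, the secretogranin II gene of endocrine granules, was 3.24-fold higher, with 449 and 1513 (1.70), and PAX6, a factor of enteroendocrine differentiation, 2.23-fold higher, with 574 and 1360 (1.16). SYT13, a synaptotagmin of endocrine cells, was above background on the CDR1AS array only (66.3 and 114) and at least 1.69-fold higher in the main processing. After local background subtraction the log2 ratio of SYT13 was 0.19. The hormone genes PYY (275 and 319; 0.10), CCK (132 and 138; -0.02) and SST (72.2 and 76.0; -0.01) differed little, although PYY had -0.53 after subtraction of the local background. The other PYY probe was dim (66.9 and 72.3; 0.03). After subtraction of the local background SCG2 (0.93) and PAX6 (0.90) were within 2-fold.

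SOX9, PROM1 and CD44 were all above 0, whereas the stem cell genes outside the 53 were mixed in direction. Their median was -0.06, with 5 of 17 above 0 and 12 below. The Wnt target and feedback gene AXIN2 had spots of 374 and 253 (-0.71), the stem cell factor gene ASCL2 261 and 212 (-0.43) and the stem cell receptor gene LGR5 133 and 117 (-0.31), all 3 on the lower side under each scaling tried. ALCAM, an adhesion gene also found on stem cells, was the only one past 2-fold, with 146 and 76.1 (-1.20), or -0.27 after local background subtraction, and its other probes were dim, with -0.22 and -0.02. CDCA7 was the highest (281 and 384; 0.35). Also above 0 were BMI1 (213 and 269; 0.23), TNFRSF19 (73.1 and 85.7; 0.18), SMOC2 (81.4 and 93.3; 0.14) and RGMB (87.1 and 93.1; 0.02).

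Notch pathway genes were listed because this pathway sets the choice between absorptive and secretory fates. All 21 were measured, 4 above 0 and 17 below, with a median of -0.08, while 52.7% of all measured genes were below 0. The 17 include DLL1 and NRARP, which were above background on the CDR1AS array only, so their bounds give no fold. HES6 (503 and 255; -1.15), which opposes HES1, and HES4 (1830 and 931; -1.09) were at least 2-fold lower. The ligand genes split: JAG2 was lower (273 and 163; -0.92) and JAG1 higher, at 99.6 and 180 (0.85, or 0.27 after local background subtraction). The receptor gene NOTCH1 had 147 and 105 (-0.66), while its other probes gave -0.13 and 0.00, and HES1, the main Notch target of absorptive progenitors, had 157 and 205 (0.31). After local background subtraction HES6 (-0.94) and HES4 (-0.26) were within 2-fold and NOTCH1 was above 0 (0.13).

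**Figure D4:**
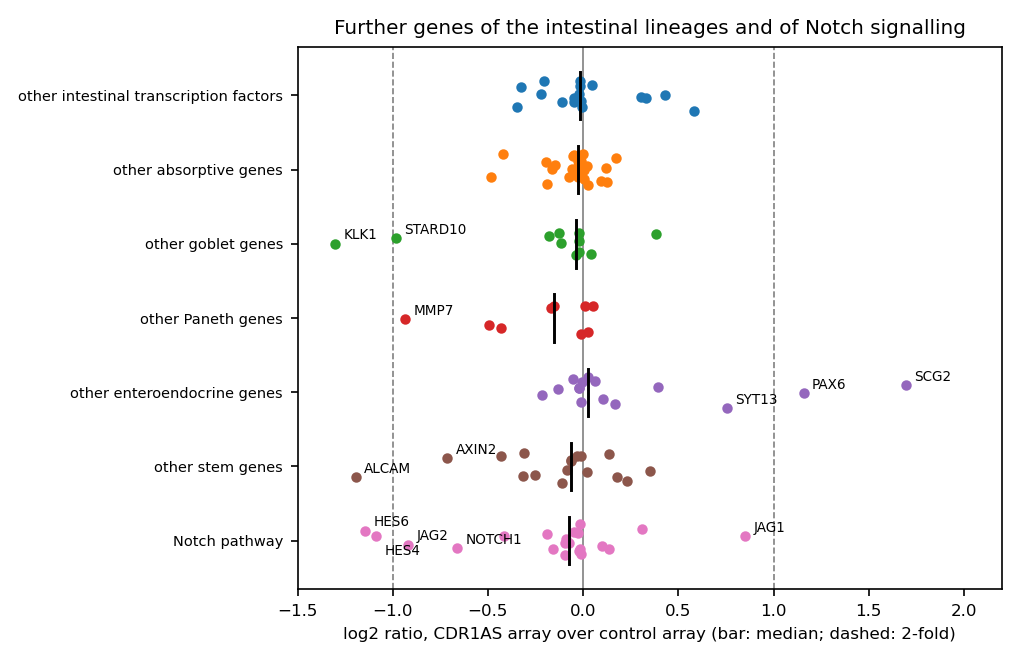
Log2 ratios, CDR1AS array over control array, of the measured genes of 7 further lists, 1 point per gene with vertical jitter and the median of each list as a bar; genes past 1.5-fold are named. The medians lie between -0.16 and 0.03, with SCG2 (1.70) and PAX6 (1.16) the points past 2-fold on the higher side and KLK1 (-1.30), ALCAM (-1.20), HES6 (-1.15) and HES4 (-1.09) on the lower.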

How the data were processed

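SW620 RNA was measured on 2 one-colour Cy5 arrays, 1 per group. Per the file headers, the authors deposited each spot's median intensity, read at a series of scanner gains; how the gains were joined is not stated there. The authors' deposited value table also holds intensity: it was a straight line of each array's spots (largest residual 0.0510 and 0.0559 units), background-subtracted and scaled to a median of 25.0. Spots were corrected with normexp in limma 3.58.1 (R 4.3.3) without the local background column and with an offset of 50, quantile-normalized and taken to log2. A gene was its brightest probe by mean log2 level, kept where either array was above background. Where only 1 array was, its fold is a bound, taken against the dim spot's own level or the lowest detected level, whichever was higher. Such a bound can fall on the side of the dim array, as for ISX, and counts above and below 0 take it as computed. Symbols came from the platform annotation (21706 probes with 1 symbol, 2753 with none), and 21674 matched RefSeq (GRCh38.p14). The main normalization was tested on simulated arrays with known changes. Changed probes were checked among the brighter ones only, and local background subtraction was not tested in this way. Every member is given by role, with spots for those past 1.5-fold, those past 2-fold in the deposited table, the brightest of each role and those on 1 array only, and for others where they help; of other lists, genes past 2-fold and the highest and lowest are given, and some were added after their values were seen. Members and lists were chosen with earlier results of these data known. The number of arrays limits the precision. Alternatives were another offset, local background subtraction, common median scaling, loess, the deposited table, a stricter filter and no filter on dim probes, and the median of a gene's probes.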

Additional observations from a re-analysis of the deposited data

How the results depend on the processing

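Under the 8 alternatives the median of the intestinal genes stayed between -0.07 and 0.00. The count at least 2-fold higher, 0 in the main processing, was 1 after local background subtraction and 2 in the deposited value table. The count at least 2-fold lower, 2 in the main processing, was 5 in the deposited value table and 2 or 3 otherwise. TFF3 was reversed after local background subtraction (0.16), and the cause was not tested. That subtraction changed the sign of 14 of 43 genes, the other 7 alternatives of at most 4. For all genes, the counts 2-fold higher and lower were 126 and 96 in the main processing, 229 and 172 with an offset of 16, 763 and 554 after local background subtraction, 541 and 367 in the deposited value table, and 75 and 65 with the stricter filter, which kept 14 members. No paired analysis was possible because each group was 1 array. With most members close to background, differences of dim genes may have gone undetected.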
